A study of Mus musculus with 8 samples.

Results

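The genes described here are 10 early genes of the antigen receptor response: Nr4a1, Nr4a2, Nr4a3, Egr1, Egr2, Egr3, Cd69, Cd5, Fos and Myc. They were taken by name from the deposited count table and read in all 8 libraries. They are 10 of the 24108 named genes of that table, and all 10 were among the 13989 genes that passed the filter on low counts and were tested.

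RNA came from CD4 T cells of mouse mesenteric lymph nodes, the nodes that drain the gut, and every library carried the same strain name, Foxp3DTR-GFP/Thy1.1CD4CreER/wtR26lsl-tdTomato/wt. Foxp3 is the transcription factor of regulatory T cells, and cells were sorted by which Foxp3 reporter they displayed, GFP or Thy1.1. The Cre is named for CD4 and depends on tamoxifen, so the red tdTomato mark records CD4 expression at the time of the drug. The design text states that the mark was meant for CD4 T cells outside the thymus that lacked Foxp3. About 3 weeks, during which diphtheria toxin was given, were allowed for this. In the strain name DTR, the diphtheria toxin receptor, is joined to GFP and not to Thy1.1. Reporter and toxin sensitivity therefore cannot be told apart, and the part of toxin in the results was not tested. All mice had been bred and weaned on AVNM, an abbreviation that the labels leave unexplained, and on an amino acid-defined diet, and were then moved to chow and given SPF fecal microbiota. Cells were sorted 12 days after that colonization. The 4 populations were tdTomato-positive GFP cells (marked GFP), tdTomato-negative GFP cells (unmarked GFP), tdTomato-positive Thy1.1 cells (marked Thy1.1) and tdTomato-negative Thy1.1 cells (unmarked Thy1.1), with 2 libraries each. The labels give no age and do not state whether replicate libraries derive from different animals. The p-values therefore reflect the scatter among these libraries, part of which may be technical. There was no group without tamoxifen, toxin or colonization.

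When a T cell receptor binds its ligand, kinases and calcium signals switch on a small set of genes within minutes to hours, before new protein is needed. Among them are transcription factors of the NR4A family, which act without a known natural ligand, the zinc-finger factors of the EGR family, the AP-1 subunit Fos, and Myc, which drives growth and metabolism. CD69 is a surface protein that holds activated cells in the lymph node, and CD5 is a surface inhibitor whose level is set by the strength of receptor signals during development. Nr4a1 reporters and CD5 are widely used as readouts of receptor signalling in regulatory T cells, which are selected on self ligands.

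The stretch of DNA upstream of each gene is shown for 5 of the early genes, to set beside the levels of NR4A genes, Egr2 and Fos below. Windows of 300 bases, from 250 bases before to 50 after a transcription start, were read from RefSeq sequence of the mouse build GRCm38.p6, which served for names and sequence only. They were found for 6 of the 10 genes, namely Nr4a1, Nr4a2, Nr4a3, Egr2, Cd5 and Fos, and not for Egr3, Cd69 and Myc. No window was looked for in Egr1, since sequences on its chromosome, 18, were not read. Capitals mark TGACG on either strand, the core of the element bound by CREB and ATF factors, and the CArG box, the element bound by serum response factor. Each window is written 5′ to 3′ on the strand of its gene.
Nr4a1 (chr15:101266596-101266895, plus strand): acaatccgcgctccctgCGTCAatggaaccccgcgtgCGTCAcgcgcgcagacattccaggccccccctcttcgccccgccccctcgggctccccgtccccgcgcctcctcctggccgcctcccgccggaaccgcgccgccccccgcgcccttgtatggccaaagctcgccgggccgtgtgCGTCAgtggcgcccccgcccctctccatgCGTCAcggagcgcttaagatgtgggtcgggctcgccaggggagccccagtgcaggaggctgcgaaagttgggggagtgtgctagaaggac
Nr4a2 (chr2:57123954-57124253, minus strand): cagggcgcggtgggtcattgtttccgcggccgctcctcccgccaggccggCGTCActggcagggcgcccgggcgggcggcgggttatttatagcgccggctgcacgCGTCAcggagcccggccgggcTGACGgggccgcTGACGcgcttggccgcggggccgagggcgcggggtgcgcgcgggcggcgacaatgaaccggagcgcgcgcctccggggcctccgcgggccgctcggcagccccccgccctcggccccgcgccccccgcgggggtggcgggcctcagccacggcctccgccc
Nr4a3 (chr4:48045055-48045354, plus strand): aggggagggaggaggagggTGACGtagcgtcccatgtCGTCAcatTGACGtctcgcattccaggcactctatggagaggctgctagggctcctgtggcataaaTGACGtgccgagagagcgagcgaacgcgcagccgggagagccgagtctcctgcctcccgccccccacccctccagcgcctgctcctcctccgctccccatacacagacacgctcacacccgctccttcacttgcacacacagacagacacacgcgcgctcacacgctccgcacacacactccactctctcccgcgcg
Egr2 (chr10:67537619-67537918, plus strand): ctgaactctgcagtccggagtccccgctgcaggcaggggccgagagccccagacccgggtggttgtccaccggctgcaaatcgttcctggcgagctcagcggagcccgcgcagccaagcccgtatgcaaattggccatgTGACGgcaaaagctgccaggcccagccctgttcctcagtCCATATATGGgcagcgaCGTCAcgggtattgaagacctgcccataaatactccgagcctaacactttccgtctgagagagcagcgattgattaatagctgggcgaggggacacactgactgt
Fos (chr12:85473640-85473939, plus strand): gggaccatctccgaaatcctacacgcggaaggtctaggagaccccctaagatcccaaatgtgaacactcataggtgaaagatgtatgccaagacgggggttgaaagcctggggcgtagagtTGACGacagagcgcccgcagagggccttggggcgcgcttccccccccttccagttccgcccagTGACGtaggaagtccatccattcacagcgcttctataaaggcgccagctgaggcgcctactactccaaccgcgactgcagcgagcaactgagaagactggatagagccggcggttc
The windows of Nr4a1, Nr4a2 and Nr4a3 each held TGACG 4 times, counting both strands. Of 32817 promoter windows of the same length, 20.8% held it at least once and 0.232% at least 4 times. That cut of 4 equals the count in these NR4A windows, so the share is a description and not a test. The Fos window held TGACG 2 times, and the Cd5 window did not hold it. Egr2 had 5 annotated windows, several of them overlapping, and the one shown held TGACG 2 times and 1 CArG box, which 1.63% of all windows had. Its window starting at base 67535249 held neither, and that starting at 67537316 held 1 CArG box and no TGACG. The letters GCGGGGGCG, the element bound by EGR factors, stood once in the Nr4a1 window and in 2.91% of all windows. The full element TGACGTCA, which contains TGACG, was searched on both strands too and was in 1.79% of all windows, and the AP-1 element TGANTCA was in 7.81%. Neither was in a window of the 6 genes. These matches describe letters, and binding was not measured.

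Levels are given as CPM, the count of a gene scaled to a common total of named-gene counts, and adjusted between libraries by TMM, and a change is called where edgeR's quasi-likelihood test gave a Benjamini-Hochberg adjusted p under 0.05 over all genes tested. The libraries held 38085686 to 47908198 counts each. Foxp3 was read in every library, at 126 to 201 CPM, and the 6 CD4 T cell markers in the table, out of 8 listed, summed to 3443 to 4646 CPM. Of the 8 B cell markers, all were in the table and summed to 20.7 to 51.0 CPM. The 7 CD8 T and NK cell markers summed to 18.8 to 46.6 CPM. The libraries numbered 3 of both GFP populations stood apart by markers of other cells. Unmarked GFP number 3 had 290.4 CPM summed over 10 myeloid and dendritic cell markers, against 40.4 to 97.0 CPM in the other 7. Siglech, a marker of plasmacytoid dendritic cells, was at 36.8 CPM there and at 0 to 1.19 CPM elsewhere. Marked GFP number 3 had 47.5 CPM over the 4 erythroid markers in the table, against 1.73 to 5.37 CPM in the others, and 21.9 CPM of the myeloid gene Lyz2. The Lyz2 level of unmarked GFP number 3 was 20.4 CPM, and the other 6 libraries had 0 to 3.01 CPM. The 4 plasma cell markers in the table, out of 5 listed, summed to 289 and 330.4 CPM in marked GFP, 227 and 257 CPM in unmarked GFP, 172 and 201 CPM in marked Thy1.1, and 174 and 173 CPM in unmarked Thy1.1 cells. All 4 GFP libraries were above all 4 Thy1.1 libraries, as for Egr1 and Fos below. Nearly all of that sum was Xbp1, which T cells also express, while the defining markers Jchain, Mzb1 and Sdc1 were at 0 to 1.56 CPM in every library. The 6 stromal and epithelial markers summed to 154 and 189 CPM in marked GFP, 296 and 315 CPM in unmarked GFP, 224 and 225 CPM in marked Thy1.1, and 273 and 271 CPM in unmarked Thy1.1 cells. Most of that sum was Pecam1, at 98.1 to 304 CPM, and Epcam, at 11.1 to 46.7 CPM, with Col1a1, Col1a2, Cdh5 and Pdpn at 0 to 7.83 CPM. The part of these cells in the results below was not tested.

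Marked GFP cells differed from marked Thy1.1 and from unmarked GFP cells in some of these early genes, with changes in both directions. Egr1 and Fos were higher in marked GFP than in marked Thy1.1 cells, while Myc and Nr4a3 were lower. Against unmarked GFP cells, marked GFP cells had less Myc, Nr4a1 and Nr4a3. Of the 10 genes, 4 were called between marked GFP and marked Thy1.1 cells, 2 in each direction, against 14.8% of all genes tested (8.01% higher and 6.82% lower). Between marked and unmarked GFP cells, 3 were called, all lower, against 12.6% of all genes (6.24% higher and 6.4% lower). The libraries of the 2 populations did not overlap for 7 of the 10 genes in each of these comparisons, against 59% and 53.8% of all genes. The median log2 fold change over the 10 was -0.17 for the first comparison, against -0.01 over all genes, and -0.20 for the second, against 0.03. Both marked GFP libraries were above the 6 other libraries for Egr1 and Cd5, against 19.3% of all genes, and below them for Nr4a2, Nr4a3 and Myc, against 15.5%. Both comparisons use the same marked GFP libraries.

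**Figure D1:**
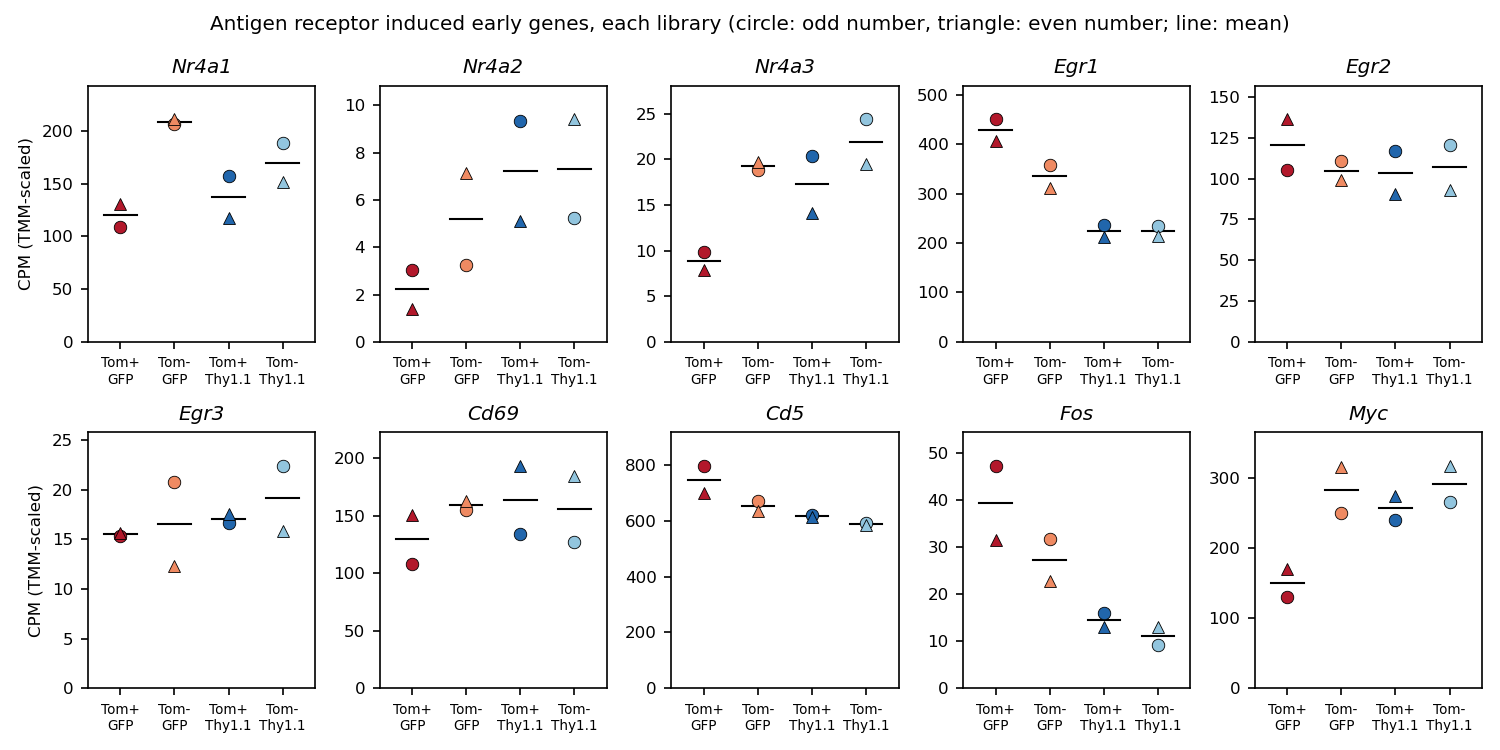
TMM-scaled CPM (y axis, linear, from 0, a separate scale per gene) of the 10 genes in marked GFP, unmarked GFP, marked Thy1.1 and unmarked Thy1.1 cells (x axis, left to right; Tom+ is marked, Tom- unmarked). Each symbol is 1 library, circles with an odd and triangles with an even number in the table, and the line is the mean; Egr1 and Cd5 were highest, and Nr4a2, Nr4a3 and Myc lowest, in both marked GFP libraries.

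Among the immediate early factors, Egr1 was high in GFP cells and highest in the marked ones. Egr1, a zinc-finger activator switched on through the MAP kinase pathway, lies on chromosome 18. It had 450.0 and 406 CPM in the 2 marked GFP libraries, 357 and 312 CPM in unmarked GFP, 237 and 213 CPM in marked Thy1.1, and 235 and 215 CPM in unmarked Thy1.1 cells. All 4 GFP libraries were above all 4 Thy1.1 libraries, and the marked GFP libraries were above both unmarked GFP ones. The order of levels was marked GFP, unmarked GFP, then both Thy1.1 populations, whose libraries overlapped. The log2 fold change of marked GFP over marked Thy1.1 cells was 0.93 ± 0.11 (SE, edgeR adjusted p = 0.00264), a 1.90-fold difference. It was called without each of the 8 libraries in turn, at log2 fold changes of 0.837 to 1.002 (edgeR adjusted p 0.00293 to 0.0313). Marked over unmarked GFP cells gave 0.35 ± 0.11 (edgeR adjusted p = 0.0721), which was not called.

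Fos, the AP-1 subunit whose RNA is made and degraded within minutes, moved with a wider spread. It had 47.2 and 31.5 CPM in marked GFP, 31.7 and 22.8 CPM in unmarked GFP, 16.0 and 13.1 CPM in marked Thy1.1, and 9.17 and 13.0 CPM in unmarked Thy1.1 cells. The GFP libraries were again all above the Thy1.1 libraries, but marked and unmarked GFP libraries overlapped. Fos was 2.70-fold higher in marked GFP than in marked Thy1.1 cells, at a log2 fold change of 1.43 ± 0.30 (SE, edgeR adjusted p = 0.0179). That call was lost without marked GFP number 3, where the log2 fold change was 1.096 (edgeR adjusted p = 0.0748), without marked Thy1.1 number 1 (1.56, edgeR adjusted p = 0.0949) and without marked Thy1.1 number 2 (1.29, edgeR adjusted p = 0.128). Marked GFP number 3 is the library with erythroid and Lyz2 RNA, and the part of those cells in the Fos level was not tested. Marked GFP number 4, at 31.5 CPM, was above every Thy1.1 library. In sorted bulk RNA, more cells with a transcript and more transcript per cell cannot be told apart, for Fos and for every gene below.

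The other EGR genes did not follow Egr1. Egr2, which with Egr3 restrains T cell activation, had 105 and 136 CPM in marked GFP, 111 and 99.2 CPM in unmarked GFP, 117 and 90.5 CPM in marked Thy1.1, and 120.5 and 93.3 CPM in unmarked Thy1.1 cells. All 4 populations overlapped, and the marked GFP over marked Thy1.1 log2 fold change was 0.22, with a 95% interval of -0.22 to 0.66 (edgeR adjusted p = 0.50). Egr3 had 15.4 and 15.7 CPM in marked GFP, 20.8 and 12.4 CPM in unmarked GFP, 16.7 and 17.5 CPM in marked Thy1.1, and 22.4 and 15.9 CPM in unmarked Thy1.1 cells. Its marked GFP libraries were below both marked Thy1.1 libraries, but the log2 fold change was -0.14, with an interval of -0.83 to 0.55 (edgeR adjusted p = 0.807). For these 2 genes the intervals hold changes of either sign, so a modest difference was not detectable at this spread.

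Of the 3 NR4A factors, whose windows are shown above, Nr4a1 and Nr4a3 were lower in marked than in unmarked GFP cells. Nr4a1, also called Nur77, had 109 and 131 CPM in marked GFP, 207 and 211 CPM in unmarked GFP, 157 and 117 CPM in marked Thy1.1, and 189 and 151 CPM in unmarked Thy1.1 cells. The unmarked GFP libraries were the highest of all 8, and marked GFP overlapped marked Thy1.1. The log2 fold change of marked over unmarked GFP cells was -0.80 ± 0.17 (SE, edgeR adjusted p = 0.025), and that of marked GFP over marked Thy1.1 cells was -0.20 ± 0.17 (edgeR adjusted p = 0.507). The first was not called without marked GFP number 3 (-0.68, edgeR adjusted p = 0.0992), without unmarked GFP number 3 (-0.82, edgeR adjusted p = 0.0615) or without unmarked GFP number 4 (-0.79, edgeR adjusted p = 0.112).

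Nr4a3, a second member of the family, was lowest in both marked GFP libraries. Its levels were 9.88 and 7.84 CPM in marked GFP, 18.8 and 19.7 CPM in unmarked GFP, 20.4 and 14.2 CPM in marked Thy1.1, and 24.4 and 19.5 CPM in unmarked Thy1.1 cells. Marked GFP cells did not overlap any other population, and the other 3 populations overlapped one another in the order of their means. The log2 fold change was -1.12 ± 0.27 against unmarked GFP (SE, edgeR adjusted p = 0.0341) and -0.96 ± 0.27 against marked Thy1.1 cells (edgeR adjusted p = 0.0487). The call against unmarked GFP was kept in 1 of 8 fits that left out a library, that without marked Thy1.1 number 1, with edgeR adjusted p from 0.049 to 0.136 over the 8. The call against marked Thy1.1 was kept in 0 of 8, with edgeR adjusted p from 0.0652 to 0.272, while the log2 fold change stayed between -1.20 and -0.71. Nr4a2, the rarest of the 10, had 3.05 and 1.40 CPM in marked GFP, 3.27 and 7.13 CPM in unmarked GFP, 9.33 and 5.12 CPM in marked Thy1.1, and 5.25 and 9.41 CPM in unmarked Thy1.1 cells. The 2 marked GFP libraries were the lowest, and the log2 fold change against marked Thy1.1 cells was -1.70 ± 0.63 (SE, edgeR adjusted p = 0.113), with a 95% interval of -3.15 to -0.25. Libraries of 1 population differed by as much as 2.18-fold for Nr4a2.

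Myc, which encodes a transcription factor that drives cell growth, was lower in marked GFP cells than in both populations they were tested against. It had 130.4 and 169.6 CPM in marked GFP, 251 and 316 CPM in unmarked GFP, 241 and 274 CPM in marked Thy1.1, and 265 and 318 CPM in unmarked Thy1.1 cells. Both marked GFP libraries were below all 6 others, and those 6 overlapped across populations. The log2 fold change was -0.92 ± 0.17 against unmarked GFP (SE, edgeR adjusted p = 0.0152) and -0.78 ± 0.17 against marked Thy1.1 cells (edgeR adjusted p = 0.0215). The first was not called without marked GFP number 3 (-0.75, edgeR adjusted p = 0.0612) or unmarked GFP number 4 (-0.74, edgeR adjusted p = 0.0881). Without unmarked GFP number 3, the library with dendritic cell RNA, it was called at -1.08 (edgeR adjusted p = 0.0171). The second was not called without marked GFP number 3 (-0.62, edgeR adjusted p = 0.0843), marked Thy1.1 number 1 (-0.90, edgeR adjusted p = 0.078) or marked Thy1.1 number 2 (-0.68, edgeR adjusted p = 0.128).

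Neither surface gene was called. Cd5 had 796 and 697 CPM in marked GFP, 670.2 and 633 CPM in unmarked GFP, 619.9 and 613 CPM in marked Thy1.1, and 592 and 585 CPM in unmarked Thy1.1 cells. No 2 neighbours in that order of populations overlapped, yet the highest library was only 1.36-fold above the lowest. Marked GFP over marked Thy1.1 cells gave a log2 fold change of 0.28 ± 0.08 (SE, edgeR adjusted p = 0.0639) and marked over unmarked GFP cells 0.20 ± 0.08 (edgeR adjusted p = 0.167), so neither was called. Cd69 had 108 and 151 CPM in marked GFP, 156 and 163 CPM in unmarked GFP, 134 and 194 CPM in marked Thy1.1, and 128 and 185 CPM in unmarked Thy1.1 cells. Libraries of 1 Thy1.1 population differed by more than the population means did. The log2 fold change of Cd69 in marked GFP over marked Thy1.1 cells was -0.34, with a 95% interval of -0.89 to 0.21 (edgeR adjusted p = 0.392).

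**Figure D2:**
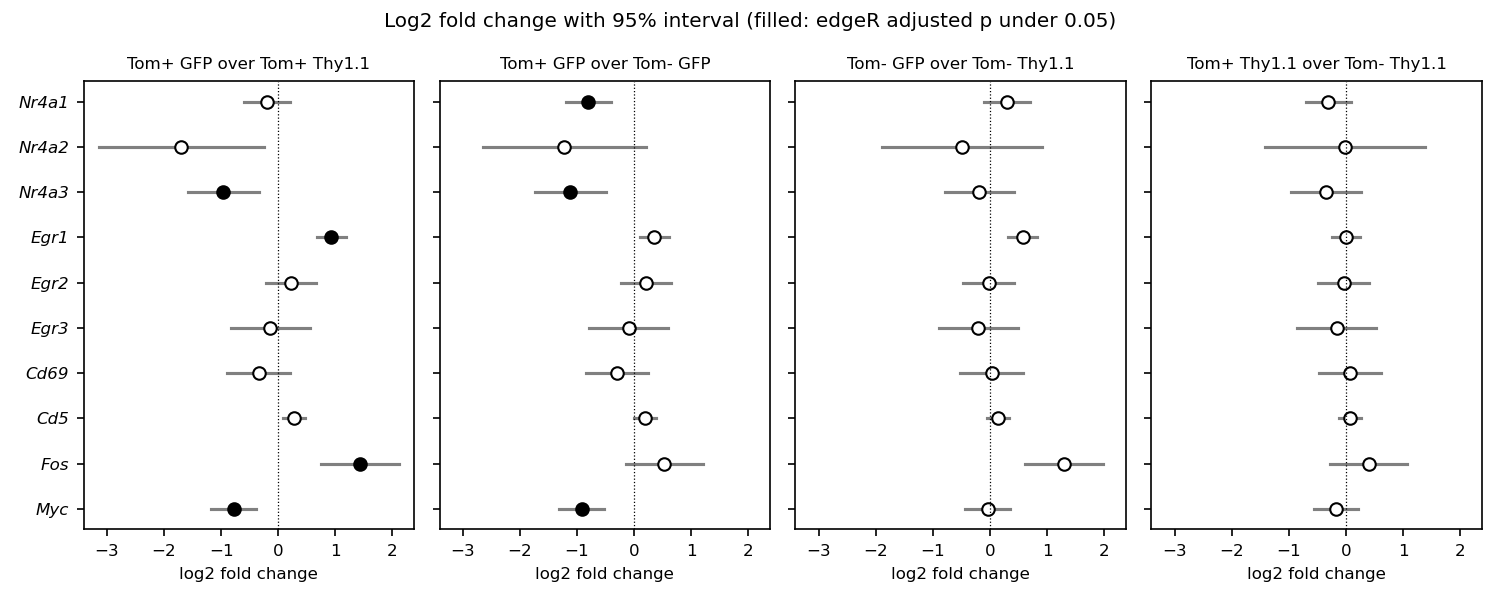
Log2 fold change (x axis) of each gene (rows) in the 4 comparisons, marked GFP over marked Thy1.1, marked over unmarked GFP, unmarked GFP over unmarked Thy1.1, and marked over unmarked Thy1.1 (panels, left to right). Points are edgeR estimates and bars their 95% intervals; filled points, 4 in the first panel and 3 in the second, had an adjusted p under 0.05.

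Within unmarked cells, the reporter went with Egr1 and Fos in the same direction as within marked cells, at smaller or like sizes and without a call. Unmarked GFP over unmarked Thy1.1 cells gave a log2 fold change of 0.57 ± 0.11 for Egr1 (SE, edgeR adjusted p = 0.09) and 1.30 ± 0.30 for Fos (edgeR adjusted p = 0.147). Of the 10 genes, edgeR called 0 and had 2 at an unadjusted p under 0.05, Egr1 and Fos, while DESeq2 called those 2. Over all genes, edgeR called 0.164% in this comparison (0.0643% higher and 0.1% lower). An unadjusted p under 0.05 was reached by 1662 of the 13989 genes tested. DESeq2 called more of all genes than edgeR did here, with counts given in the closing section. The libraries did not overlap for 4 of the 10 genes, Nr4a1, Egr1, Cd5 and Fos, against 42.6% of all genes. Unmarked GFP number 3 held the dendritic cell RNA. Unmarked GFP number 4 had 312 CPM of Egr1 and 22.8 CPM of Fos, above every Thy1.1 library. The part of the dendritic cell RNA in the levels of number 3 was not tested. Egr1, Fos and Cd5 were the 3 genes with all 4 GFP libraries above all 4 Thy1.1 libraries, against 7.03% of all genes, and none had them all below, against 6.09%. The sizes for Myc (-0.04 ± 0.17), Nr4a1 (0.30 ± 0.17) and Nr4a3 (-0.19 ± 0.26) were within 2 SE of 0.

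Within Thy1.1 cells the mark changed none of the 10 genes past the threshold. EdgeR called 0 of them, with 0 at an unadjusted p under 0.05, and DESeq2 called 0; over all genes edgeR called 0%, with 1063 genes at an unadjusted p under 0.05. Their log2 fold changes, marked over unmarked Thy1.1 cells, ran from -0.34 for Nr4a3 to 0.40 for Fos, and libraries did not overlap for 2 genes, Cd5 and Fos, against 45% of all genes. The size for Egr1 was 0.00 with a 95% interval of -0.25 to 0.25. The Egr1 difference between marked GFP and marked Thy1.1 cells was 0.93. Those 2 comparisons share the marked Thy1.1 libraries, and whether their sizes differ was not tested.

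Whether the mark acted differently in GFP and in Thy1.1 cells was tested as an interaction, the difference of the 2 log2 fold changes. EdgeR called 0 of the 10 genes and 0.443% of all genes (0.0929% positive and 0.35% negative). Myc was the 1 gene of the 10 with an unadjusted p under 0.05, against 1792 of all 13989 genes tested. Its size was -0.74 ± 0.24 (SE, edgeR adjusted p = 0.271). DESeq2, which called more of all genes than edgeR did here, called Myc at -0.77 (DESeq2 adjusted p = 0.0491). Nr4a3 had -0.78 ± 0.38 (edgeR adjusted p = 0.436), Nr4a1 -0.49 ± 0.24 (edgeR adjusted p = 0.443) and Egr1 0.35 ± 0.15 (edgeR adjusted p = 0.391). The calls of Myc, Nr4a1 and Nr4a3 in GFP cells and their absence in Thy1.1 cells are thus not shown by edgeR to be a difference between the reporters.

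Ratios of 2 genes were also read within each library, where scaling between libraries plays no part. Counts of Egr1 were 3.45 and 2.39 times those of Myc in marked GFP, 1.43 and 0.987 times in unmarked GFP, 0.983 and 0.776 times in marked Thy1.1, and 0.884 and 0.677 times in unmarked Thy1.1 cells. Both marked GFP libraries had a higher ratio than the 6 others, unmarked GFP cells stood just above the Thy1.1 cells, and the marked and unmarked Thy1.1 libraries overlapped. The ratio of Egr1 to Nr4a1 was 4.14 and 3.10 in marked GFP, 1.73 and 1.48 in unmarked GFP, 1.504 and 1.82 in marked Thy1.1, and 1.24 and 1.42 in unmarked Thy1.1 cells. Nr4a1 and Egr2, which are both used as signs of receptor signalling, stood at a ratio of 1.03 and 0.96 in marked GFP, 1.87 and 2.13 in unmarked GFP, 1.35 and 1.29 in marked Thy1.1, and 1.56 and 1.62 in unmarked Thy1.1 cells. That ratio was lowest in marked GFP and highest in unmarked GFP cells, with no overlap between any 2 populations. These pairs were chosen after the values had been seen, and the ratios depend on transcript length, so they are compared between libraries only and were not tested.

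**Figure D3:**
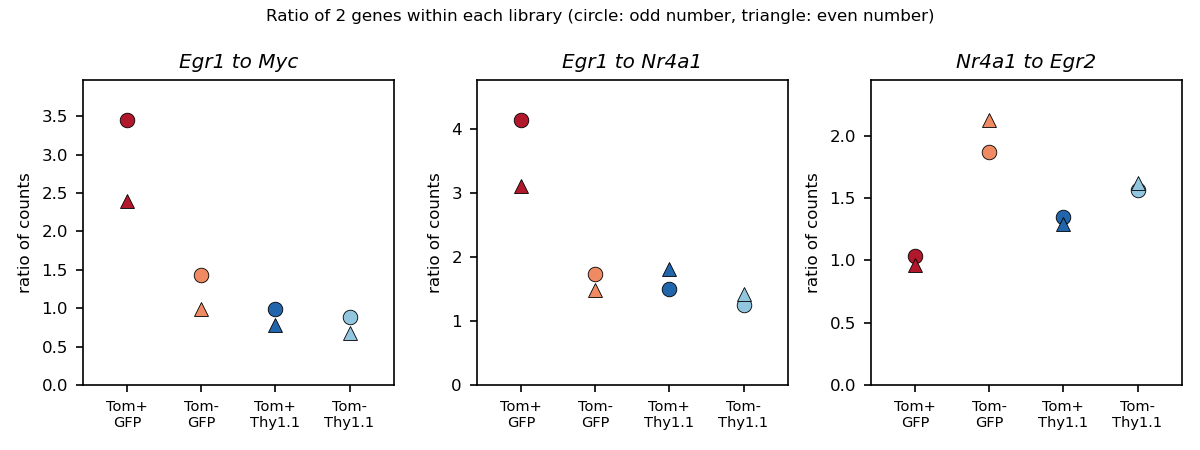
Ratio of the counts of 2 genes within a library (y axis, linear, from 0) for Egr1 to Myc, Egr1 to Nr4a1, and Nr4a1 to Egr2 (panels), in the 4 populations (x axis; Tom+ is marked, Tom- unmarked). Each symbol is 1 library; Egr1 to Myc was 3.45 and 2.39 in marked GFP cells and at most 1.43 elsewhere.

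The spread within populations was also read by library number. Egr1 and Cd5 were higher in the odd-numbered library of all 4 populations, against 8.24% of all genes, and Cd69 and Myc were lower there in all 4, against 8.34%. The summed Treg cell markers were also lower in the odd-numbered library of all 4 populations, at 2396 to 2628 CPM against 2788 to 2927 CPM in the even-numbered ones. The markers in that sum did not all move together. Il2ra and Foxp3 were lower there in all 4, but Foxp3 was nearly equal in marked Thy1.1 cells, at 186.4 against 186.6 CPM. Il2ra was at 630.7 against 1084.5 CPM in marked GFP and at 671 against 807 CPM in marked Thy1.1 cells. Ctla4 was higher there except in marked Thy1.1 cells, with 1263.9 against 1072.1 CPM in marked GFP. For Myc, 130.4 CPM in marked GFP number 3 stood against 169.6 CPM in number 4, and 265 CPM in unmarked Thy1.1 number 1 against 318 CPM in number 2. The labels do not say what a number stands for, and the GFP libraries are numbered 3 and 4 in the table where the sample titles say 1 and 2.

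Per kilobase of exon, which lets genes be set beside each other, the order of levels shifted between populations. Exon lengths were taken from GENCODE M21, in which no exon of the 10 genes overlaps another gene. In marked GFP cells the mean was 151 CPM per kb for Cd5, 95.4 for Egr1 and 55.2 for Myc, then 35.5 for Egr2, 34.1 for Nr4a1, 19.9 for Cd69 and 16.7 for Fos. Egr3, Nr4a3 and Nr4a2 followed at 3.52, 1.48 and 0.547 CPM per kb. In unmarked GFP cells Cd5 was also first, at 132 CPM per kb, but Myc was second at 104, before Egr1 at 74.6 and Nr4a1 at 59.5. The 2 marked GFP libraries placed Egr1 above Myc and the 2 unmarked GFP libraries placed Myc above Egr1 on this scale. Across the 8 libraries the spread in CPM, highest over lowest, was 6.74-fold for Nr4a2, 5.15-fold for Fos, 3.11-fold for Nr4a3, 2.44-fold for Myc, 2.12-fold for Egr1 and 1.94-fold for Nr4a1, and from 1.36- to 1.81-fold for Cd5, Egr2, Cd69 and Egr3.

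Genes around this response were read from 8 lists, chosen with earlier results of these data known. Among 16 AP-1 partners and other immediate early factors, 2 (12.5%) were called in marked GFP over marked Thy1.1 cells, a share near the 14.8% of all genes. Both were higher: Zfp36, which destabilises cytokine RNA, at 386 against 233 CPM (log2 fold change 0.73 ± 0.11), and Batf, an AP-1 factor of effector T cells, at 236 against 137 CPM (0.79 ± 0.21). Against unmarked GFP cells, 2 (12.5%, against 12.6% of all genes) were called, both higher, Batf (1.06 ± 0.21) and Junb (0.73 ± 0.11), a partner of Fos. Over the 16, the median log2 fold change of marked GFP over marked Thy1.1 cells was -0.04, against -0.01 over all genes. That of marked over unmarked GFP cells was 0.17, against 0.03 over all genes.

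Several of these genes also respond to stress during cell isolation, so 15 genes of handling and heat shock were read as well. In each comparison of marked GFP cells 1 was higher, Gadd45b, and 1 lower, Nfkbiz, a share of 13.3% that is near the 14.8% and 12.6% of all genes. Gadd45b had 124 CPM in marked GFP, against 47.7 CPM in marked Thy1.1 cells (log2 fold change 1.38 ± 0.18), and Nfkbiz 93.0 against 154 CPM (-0.73 ± 0.16). The list median was 0.03 against marked Thy1.1 and 0.21 against unmarked GFP cells, beside -0.01 and 0.03 over all genes. The part of handling in the levels of Egr1 and Fos was not tested.

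The machinery upstream showed changes in both directions. Of 20 genes of proximal receptor signalling, 6 were higher and 2 lower in marked GFP than in marked Thy1.1 cells, 40% against 14.8% of all genes, with a median log2 fold change of 0.07. Among those higher were Zap70, the kinase recruited to the receptor, at 378 against 244 CPM (log2 fold change 0.63 ± 0.10), Nfatc1, a calcium-driven factor, at 984 against 650.0 CPM (0.60 ± 0.10), the co-receptor gene Cd4 at 486 against 331 CPM (0.56 ± 0.09) and Cd247, the zeta chain (0.53 ± 0.08). Cd247 shares 56.4% of its exon bases with Pou2f1 on the other strand, and the kit did not keep strand, so its reads are uncertain. Against unmarked GFP cells 4 were higher and 4 lower, 40% against 12.6% of all genes (6.24% higher and 6.4% lower). Nfatc1 (0.89 ± 0.10) and Zap70 (0.69 ± 0.10) were among those higher. Prkcq (-0.60 ± 0.09), a kinase that links the receptor to NF-kB, was among those lower.

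Feedback inhibitors changed in both directions. Of 22 listed, 21 were tested, and 4 were higher and 7 lower in marked GFP than in marked Thy1.1 cells, 52.4% against 14.8% of all genes (8.01% higher and 6.82% lower), with a median of -0.33. The split between higher and lower was not tested. Ubash3a, a phosphatase-family inhibitor of receptor signals, had 190.1 CPM in marked GFP, against 341 CPM in marked Thy1.1 cells (log2 fold change -0.84 ± 0.09), while its relative Ubash3b had 239 against 128 CPM (0.90 ± 0.17). Dgka, which removes diacylglycerol, was lower (-0.60 ± 0.10), and Nab1, which binds EGR proteins and represses through them, was higher (0.64 ± 0.12). Against unmarked GFP cells 3 were higher and 6 lower, 42.9% against 12.6% of all genes, among them Ptpn22 (0.72 ± 0.11) higher, and Dgka (-0.65 ± 0.10), Ubash3a (-0.60 ± 0.09) and Ptpn6 (-0.63 ± 0.11), the gene of the phosphatase SHP-1, lower. Another list held 18 genes put down as induced later after receptor signals, an induction not measured here. It shares Ctla4, Ikzf2, Il2ra and Tnfrsf18 with the Treg cell markers. Of the 18, 4 were higher and 5 lower against marked Thy1.1 cells (50% against 14.8% of all genes). Against unmarked GFP cells, 4 were higher and 2 lower (33.3% against 12.6%). The costimulator Icos had 1364 CPM in marked GFP, against 402 CPM in marked Thy1.1 (log2 fold change 1.76 ± 0.19) and 528 CPM in unmarked GFP cells (1.37 ± 0.19). The inhibitory receptor Ctla4 was higher in the same 2 comparisons (1.39 ± 0.15 and 1.07 ± 0.15), and Pdcd1, which encodes PD-1, was higher against unmarked GFP cells (1.09 ± 0.15). Ikzf2, which encodes Helios, had 155 CPM in marked GFP, against 787 CPM in marked Thy1.1 cells (-2.34 ± 0.25) and 380 CPM in unmarked GFP cells (-1.29 ± 0.24). Cd83 had 110 CPM in marked GFP, against 314 CPM in marked Thy1.1 cells (-1.52 ± 0.11), and was the 1 gene of the lists called in unmarked GFP over unmarked Thy1.1 cells, at 105 against 230 CPM (-1.14 ± 0.11, edgeR adjusted p = 0.0146).

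Genes on either side of Myc were read next. Of 20 MYC target genes, 3 were higher and 0 lower in marked GFP than in marked Thy1.1 cells, with a median log2 fold change of 0.06. That share of 15% is near the 14.8% of all genes, as is the 15% against unmarked GFP cells near 12.6%. Ldha, a glycolytic enzyme, had 1602 CPM in marked GFP, against 790 CPM in marked Thy1.1 cells (1.02 ± 0.10), the transferrin receptor gene Tfrc 59.2 against 32.6 CPM (0.86 ± 0.19) and the chaperone gene Hspd1 161 against 118 CPM (0.44 ± 0.11). Against unmarked GFP cells 2 were higher, Ldha (0.48 ± 0.10) and Slc3a2 (0.44 ± 0.12), and 1 lower, Slc7a5 (-0.57 ± 0.13), although Slc3a2 and Slc7a5 encode the 2 chains of 1 amino acid transporter. Among 11 partners of MYC, 9 were tested, and 1 was higher, Mxd3 (1.07 ± 0.30), and 2 lower, Mnt (-1.13 ± 0.28) and Mga (-0.72 ± 0.18), against marked Thy1.1 cells (33.3% against 14.8% of all genes). Against unmarked GFP cells 2 were called (22.2% against 12.6% of all genes), both lower, Mxd1 (-1.18 ± 0.21) and Mnt (-1.08 ± 0.28). Mnt, Mga, Mxd1 and Mxd3 encode repressors that compete with MYC for the partner MAX.

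CD69 lowers the exit receptor S1PR1 from the cell surface, and 8 genes of lymph node entry and exit were read beside it. Of these, 2 were higher and 4 lower in marked GFP than in marked Thy1.1 cells (75% against 14.8% of all genes), and 1 higher and 4 lower than in unmarked GFP cells (62.5% against 12.6%). Ccr7, the receptor that guides cells into the node, had 238 CPM in marked GFP, against 454 CPM in marked Thy1.1 (log2 fold change -0.93 ± 0.12) and 596 CPM in unmarked GFP cells (-1.32 ± 0.12). The integrin genes Itga4 (-0.57 ± 0.12) and Itgb7 (0.44 ± 0.06) were lower and higher, in that order, against marked Thy1.1 cells. S1pr1 itself, at 353 against 740 CPM (-1.07 ± 0.11), and its activator Klf2, at 360.0 against 692 CPM (-0.94 ± 0.11), were lower against unmarked GFP cells, a comparison in which Cd69 was not called. Apart from Cd83, edgeR called no gene of the 8 lists in unmarked GFP over unmarked Thy1.1 cells, and it called none in marked over unmarked Thy1.1 cells.

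**Figure D4:**
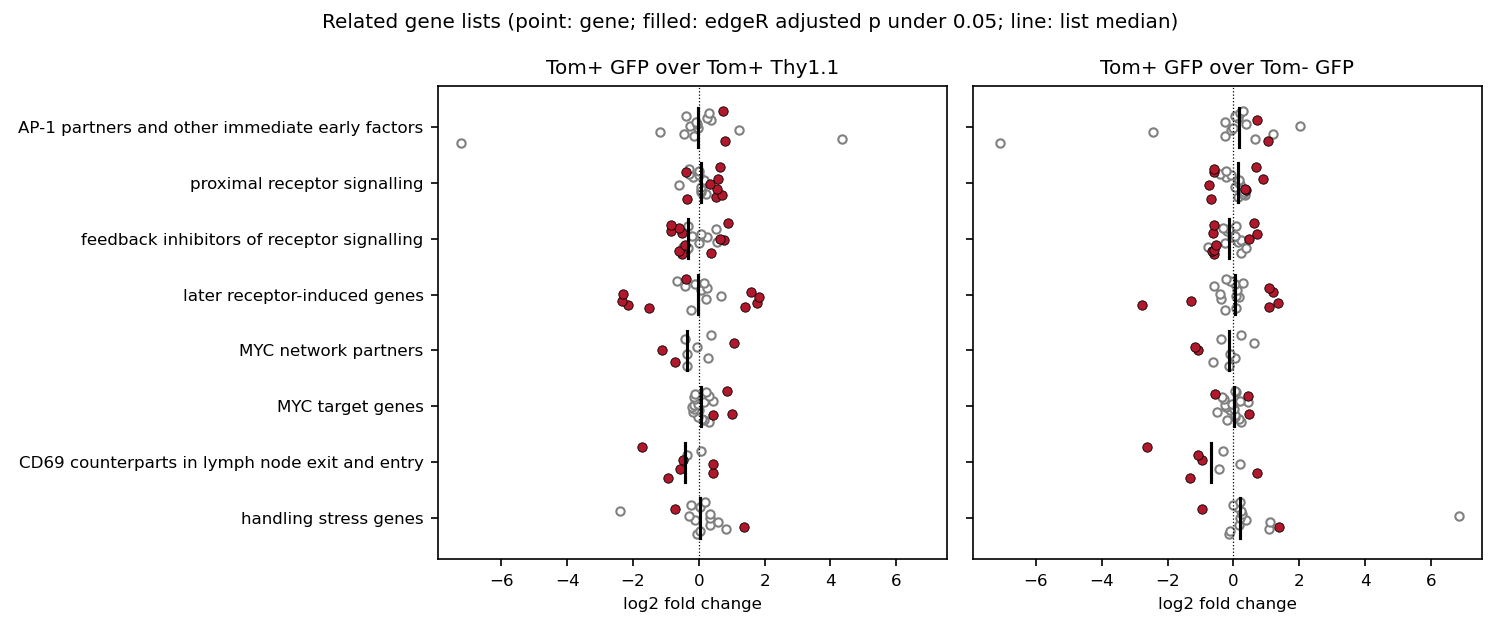
Log2 fold change (x axis) of every tested gene of the 8 lists (rows) in marked GFP over marked Thy1.1 cells (left) and in marked over unmarked GFP cells (right). Each point is a gene, filled where edgeR's adjusted p was under 0.05, and the black line is the list median; open points far from 0 are genes of low count that were not called.

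Other genes whose levels followed each early gene over the 8 libraries were found by the root mean square difference of log2(CPM + 0.5), each gene centred on its own mean, among 9666 genes with a mean of at least 5 CPM. Egr1 was followed most closely by Pcdh9 (0.0639), Ldha (0.0724) and Cyp51 (0.0897), and Myc by Nefh (0.0489), Nfkbiz (0.0878) and Aff3 (0.0891), all in log2 units. Nr4a1 was nearest to Osbpl8 (0.0876), St8sia1 (0.111) and Ccdc66 (0.116), of which Ccdc66 shares 39.1% of its exon bases with another gene. Nr4a3 was nearest to Ubxn11, Wars2 and Slc12a7, at 0.121 to 0.127. Fos was nearest to E2f1, Mtbp and Smim24, at 0.186 to 0.209, and Nr4a2 to Rps6kc1, Shpk and Bbs2, at 0.201 to 0.285. Cd5 was nearest to Jund, Coro1a and Rhoa, at 0.0305 to 0.0329, with Jund sharing 52.6% of its exon bases with an antisense gene. The nearest genes were Nup88, Rrp1b and Wdr36 for Egr2, Casp9, Rsl1 and Eri3 for Egr3, and Banp, Actn2 and Mrgbp for Cd69, at 0.0907 to 0.121. Within the 10, Nr4a1 and Nr4a3 were each nearer to Myc (0.334 and 0.311) than to each other, Egr1 was nearest to Cd5 (0.282), and Fos to Egr1 (0.380). The SD of a gene's own centred levels was 0.365 for Nr4a1, 0.551 for Nr4a3, 0.431 for Egr1 and 0.788 for Fos. The distance of Nr4a1 to Myc was near its own SD, so Nr4a1 is not shown to follow Myc. The 8 points are 4 populations with 2 libraries each and are not independent.

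**Figure D5:**
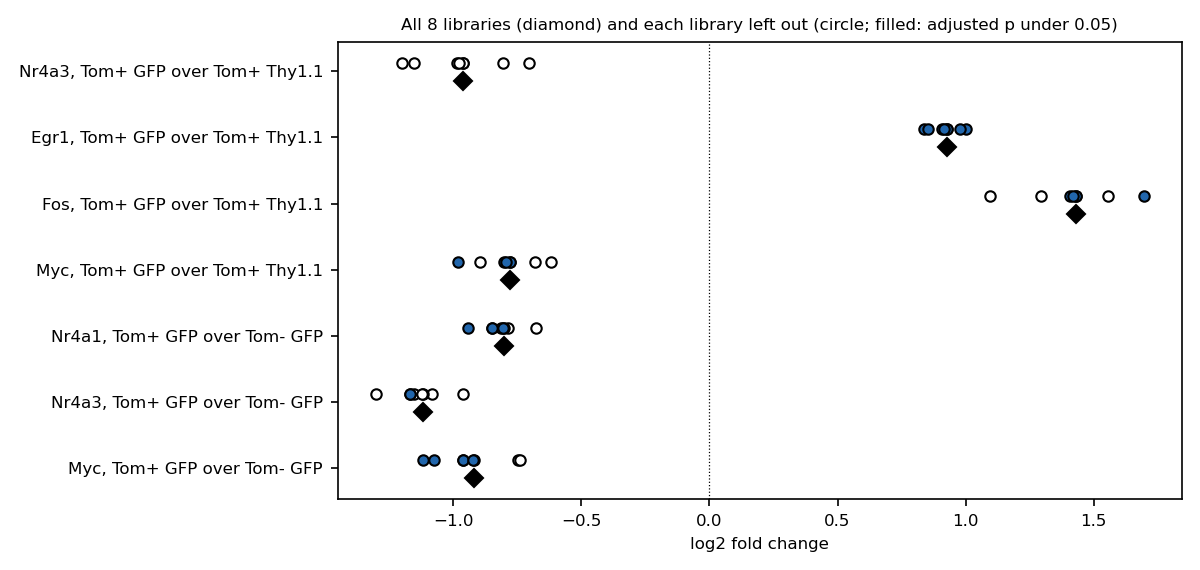
Log2 fold change (x axis) of the 4 genes called in marked GFP over marked Thy1.1 cells and the 3 called in marked over unmarked GFP cells (rows), with all 8 libraries (diamond) and with each library left out in turn (circles, filled where edgeR's adjusted p was under 0.05). Every fit kept its side of 0; Egr1 was called in all 8, Myc in 5 and 6 of 8 in the 2 comparisons, and Nr4a3 in 0 and 1.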

How the data were processed

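PolyA RNA of sorted CD4 T cells was amplified by SMART-Seq v4, a kit that does not mark strand, and made into KAPA Hyper Prep libraries read as 50-base paired ends on an Illumina HiSeq, per the labels' protocols. The authors deposited 1 table of raw counts per gene, whole numbers that were not normalized, per the file headers. Aligner, counter, annotation and genome build: not given in the sources used here. DESeq is named, without a version, per the submitters' processing notes. Of 24116 rows, 8 had no gene name and held 0.0215% to 0.0264% of a library's counts. They were left out. Columns of the Thy1.1 populations carry the numbers of the sample titles. GFP columns are numbered 3 and 4 where the titles say 1 and 2, so they were matched to their population only.

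Tests used R 4.3.3, edgeR 4.0.16, limma 3.58.1 and DESeq2 1.42.0. Filtering with filterByExpr (minimum count 10) left 13989 genes, TMM factors were 0.978 to 1.02, and 1 robust quasi-likelihood model with a mean per population was fitted to all 8 libraries, with 4 residual degrees of freedom and a common biological coefficient of variation of 0.399. P-values were Benjamini-Hochberg adjusted over all genes tested, and those under 0.05 were called. Standard errors come from the F statistic, and 95% intervals from them. The fit was checked on simulated counts. Fits that leave out a library kept the same 13989 genes, since the filter loosens when a population has 1 library; this, and centring the replicate term, were settled after first values had been seen. A population left with 1 library is then assumed to vary like the others. The members and the gene lists were chosen with earlier results of these data known. Named were the 10 members, up to 4 called genes of each list and comparison with the smallest adjusted p, and the 3 genes most like each member; Foxp3, Siglech, Lyz2 and the single markers were named after their values were seen. Results of some list genes are not reported here, while counts over lists include them. Alternatives were other size factors, library totals alone, no filter, a minimum count of 50, DESeq2, fits on the populations compared, a replicate block and each library left out. Exon overlaps, exon lengths and gene positions are from GENCODE M21 (GRCm38). Sequences on chromosome 18 were not read.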

Additional observations from a re-analysis of the deposited data

How the results depend on the processing

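Over 8 settings other than leaving out a library, Egr1, Fos and Myc were called in marked GFP over marked Thy1.1 cells in all 8, while Nr4a3 missed without a filter (adjusted p = 0.0512) and with only those 2 populations (0.107). With only marked and unmarked GFP cells in the fit, 0 of the 10 genes were called, against 3: Myc had an adjusted p of 0.0639, Nr4a1 0.0514 and Nr4a3 0.108. The cause was not tested, and that fit has fewer samples. In unmarked GFP over unmarked Thy1.1 cells, 1 gene was called with a minimum count of 50, Egr1 (0.61, adjusted p = 0.0476), and 2 with DESeq2, Egr1 and Fos. DESeq2 called 1 interaction, that of Myc. DESeq2 also called 6 genes in marked GFP over marked Thy1.1 cells, adding Nr4a2 and Cd5, and 4 in marked over unmarked GFP cells, adding Egr1.

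Leaving out 1 library gave 1 to 4 called genes in marked GFP over marked Thy1.1 cells and 0 to 3 in marked over unmarked GFP cells. The first count was lowest without marked GFP number 3, marked Thy1.1 number 1 or marked Thy1.1 number 2. The second was lowest without marked GFP number 3 or unmarked GFP number 4, and also fell without unmarked GFP number 3. Each of these fits left a compared population with 1 library. Calls over all genes fell in some fits without a library too, as the ranges given next show. Whether these genes lost calls more often than others was not tested.

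Counts over all genes moved as well. For marked GFP over marked Thy1.1 cells, 2074 genes were called by edgeR, 3211 by DESeq2 and 461 to 2139 without a library. For marked over unmarked GFP cells the counts were 1768, 3012, 438 to 1830, and 300 with those 2 populations alone. For marked over unmarked Thy1.1 cells, edgeR called 0, DESeq2 150 and the fit on those populations 2. For unmarked GFP over unmarked Thy1.1 cells they were 23, 628, 0 to 74, 98 without a filter, 98 with a minimum count of 50, and 1 with those populations alone. For the interaction they were 62, 596, 0 to 105, 109 without a filter and 106 with a minimum count of 50.

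A replicate block, the library number as a term within each reporter, called 5 genes in marked GFP over marked Thy1.1 cells, adding Cd5 (0.27, edgeR adjusted p = 0.0279), 4 in marked over unmarked GFP cells, adding Egr1 (0.36, edgeR adjusted p = 0.0232), and 1 in unmarked GFP over unmarked Thy1.1 cells, Egr1 (0.57, edgeR adjusted p = 0.0409). In that last comparison it called 78 of all genes. Libraries with like numbers deviated together only weakly (r from 0.0426 to 0.056 over genes, which are not independent replicates), and the labels do not say that a number marks a shared animal or batch, so the block was not taken as the main fit.

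No called value changed sign. Outside the fits that left out a library, 315 single-gene values kept their side of the threshold and their direction, 10 became called, 5 lost their call and 10, all near 0, reversed. In marked over unmarked Thy1.1 cells, Nr4a2 reversed to 0.0167 with library totals, and Egr1 to 0.0081 with RLE factors, 0.0350 with library totals, 0.0060 without a filter, 0.0135 with a minimum count of 50, 0.0081 with DESeq2 and 0.0039 with those populations alone. In unmarked GFP over unmarked Thy1.1 cells, Egr2 reversed to 0.0074 without a filter and 0.0078 with a minimum count of 50. The interaction of Egr3 was -0.0010 with library totals. Without a library, uncalled values spanned 0 as follows: Nr4a1 in marked GFP over marked Thy1.1 cells (-0.39 to 0.0061) and Egr3 in marked over unmarked GFP cells (-0.43 to 0.33). In marked over unmarked Thy1.1 cells these were Nr4a2 (-0.50 to 0.46), Egr1 (-0.0663 to 0.0782), Egr2 (-0.22 to 0.17), Egr3 (-0.39 to 0.12) and Cd69 (-0.21 to 0.36). In unmarked GFP over unmarked Thy1.1 cells they were Nr4a3 (-0.35 to 0.0203), Egr2 (-0.21 to 0.21), Egr3 (-0.63 to 0.12), Cd69 (-0.17 to 0.31) and Myc (-0.22 to 0.12). For the interaction they were Egr2 (-0.0089 to 0.42), Egr3 (-0.27 to 0.49) and Fos (-0.19 to 0.39). With 2 libraries per population, differences of the size of the uncalled genes' intervals were not detectable.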
